A study of Mus musculus with 28 samples.

Results

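The MHC class II genes and the PD-L1 gene Cd274 were followed in regulatory T cells (Tregs) sorted by their surface OX40 from B16 melanomas and spleens of mice. The members were chosen by symbol: H2-Aa, H2-Ab1, H2-Eb1, H2-DMa, H2-DMb1, Cd74, Ciita and Cd274. Of these 8 genes, 7 had a row among the 13103 genes of the deposited table, all 7 passed a filter on low values that left 12509 genes for testing, and H2-Eb1 was not analysed here. The study asked how Tregs with high OX40, a TNF-type receptor that costimulates T cells, differ from Tregs with low OX40. All mice were of the Foxp3-GFP strain, in which Foxp3-expressing cells are green, and all carried B16 cells, a transplanted melanoma, in the skin of the right side for 7 to 10 days. GFP+ cells were sorted after antibody staining for CD45, CD3, CD4 and OX40. The 4 groups were tumor OX40plus and tumor OX40minus Tregs (4 mice each) and spleen OX40plus and spleen OX40minus Tregs (3 mice each); all spleens came from tumor-bearing mice. The labels give no age and do not say whether a tumor and a spleen with the same mouse number came from 1 animal.

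MHC class II molecules present peptides from the endosomal pathway to CD4+ T cells. Their alpha and beta chains pair in the endoplasmic reticulum with the invariant chain, encoded by Cd74, and H2-DM later exchanges the remnant of that chain for peptide. CIITA, the class II transactivator, switches the genes on through a protein complex bound to the X and Y boxes of their promoters, and interferon gamma raises both Ciita and Cd274. Dendritic cells, B cells and activated macrophages are the usual expressors of class II in mice. Mouse T cells make little of it, whereas human T cells show it on activation. PD-L1, the ligand of the inhibitory receptor PD-1, is found on many cell types, T cells among them.

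Levels are given in CPM, the count of a gene scaled to a library total of 1 M, from counts estimated by inverting the deposited log2 CPM. Samples held 22.4 M to 29.6 M estimated counts. Each sample is the mean of 2 libraries from 1 mouse and gate, since such pairs varied by little more than counting noise. A level of 3 counts was 0.104 to 0.13 CPM, a limit that covers counting error only. Differences are log2 fold changes with their standard error (SE) from 1 limma fit over all 14 samples, and called means a p under 0.05 after Benjamini-Hochberg adjustment over all 12509 genes. Tnfrsf4, the OX40 gene, followed the gates, with 3357 ± 203 CPM in tumor OX40plus and 1950 ± 152 CPM in tumor OX40minus Tregs (SD, n = 4 each), and with 704 ± 111 CPM in spleen OX40plus and 253 ± 40.9 CPM in spleen OX40minus Tregs (SD, n = 3 each). Cd3e, a chain of the T cell receptor complex, lay between 521 and 1103 CPM in all samples. The spleen OX40plus sample of mouse 3 stood apart, with 129.6 CPM of Foxp3 against 32.1 and 31.8 CPM in the other mice of its group. Called differences of the members that rest on it are given with and without it.

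The class II promoters are shown first, because the class II genes share a known regulator, CIITA, that acts through them. RefSeq promoter windows of build GRCm38.p6, 250 bases before to 50 bases after each gene's start, were found for 7 of 10 class II, Ciita and Cd274 genes looked for. H2-Ab1, Ciita and Cd74 had no window, so their promoters were not searched. The motifs given here, searched on both strands, were a Y box (TGATTGG), an X box (GNAAC, then 2 or 3 bases of any kind, then TGANG) and an interferon response element (GAAA, 2 bases, then GAAA). They can overlap each other, and the letters of the boxes were chosen with these sequences in view. The stretches below are printed 5′ to 3′ on the strand of the gene, with X and Y boxes in capitals.
H2-Aa, chr17:34287852-34287919, minus strand: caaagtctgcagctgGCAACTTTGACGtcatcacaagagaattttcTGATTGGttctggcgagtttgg
H2-DMb1, chr17:34153082-34153149, plus strand: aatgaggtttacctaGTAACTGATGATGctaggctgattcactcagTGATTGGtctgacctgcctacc
H2-Ob, chr17:34238803-34238867, plus strand: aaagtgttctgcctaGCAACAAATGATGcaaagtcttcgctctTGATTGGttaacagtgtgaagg
H2-DMb2, chr17:34145111-34145178, plus strand: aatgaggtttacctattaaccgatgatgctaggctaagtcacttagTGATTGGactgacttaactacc
H2-Oa, chr17:34092288-34092355, plus strand: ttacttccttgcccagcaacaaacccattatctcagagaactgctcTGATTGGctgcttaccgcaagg

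H2-Aa, H2-DMb1 and H2-Ob held both boxes, with 19, 18 and 15 bases between them. H2-DMb2 and H2-Oa held the Y box and no match to the X box letters used. At the place of the H2-DMb1 X box, H2-DMb2 missed those letters at the first base only. Over 32851 windows, 7.82% held the Y box, 1.81% the X box and 0.149% both. The paired boxes began 81 bases before the RefSeq start in H2-Aa, 94 in H2-DMb1 and 87 in H2-Ob. The Cd274 window and both H2-DMa windows held none of these motifs. Gene spans printed below are from GENCODE, so their starts can differ from the RefSeq starts used for the windows. Both H2-DMa windows lie inside the span of that gene, and other starts were not searched. The interferon response element, in 3.44% of windows, was in no window of the 7 genes that had one. Ciita, H2-Ab1 and Cd74 were not among these. A match is a description of these letters and no evidence of binding.

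In tumors, OX40plus Tregs carried fewer transcripts of 6 of the 7 members than OX40minus Tregs: Cd274, Ciita, H2-Aa, H2-Ab1, H2-DMb1 and Cd74. Over all genes tested, 20% were called lower in this comparison. The falls were 1.88-fold to 3.72-fold, and the median log2 fold change of the 7 members was -1.32, against -0.07 over all genes tested. H2-DMa did not pass the test.

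**Figure D1:**
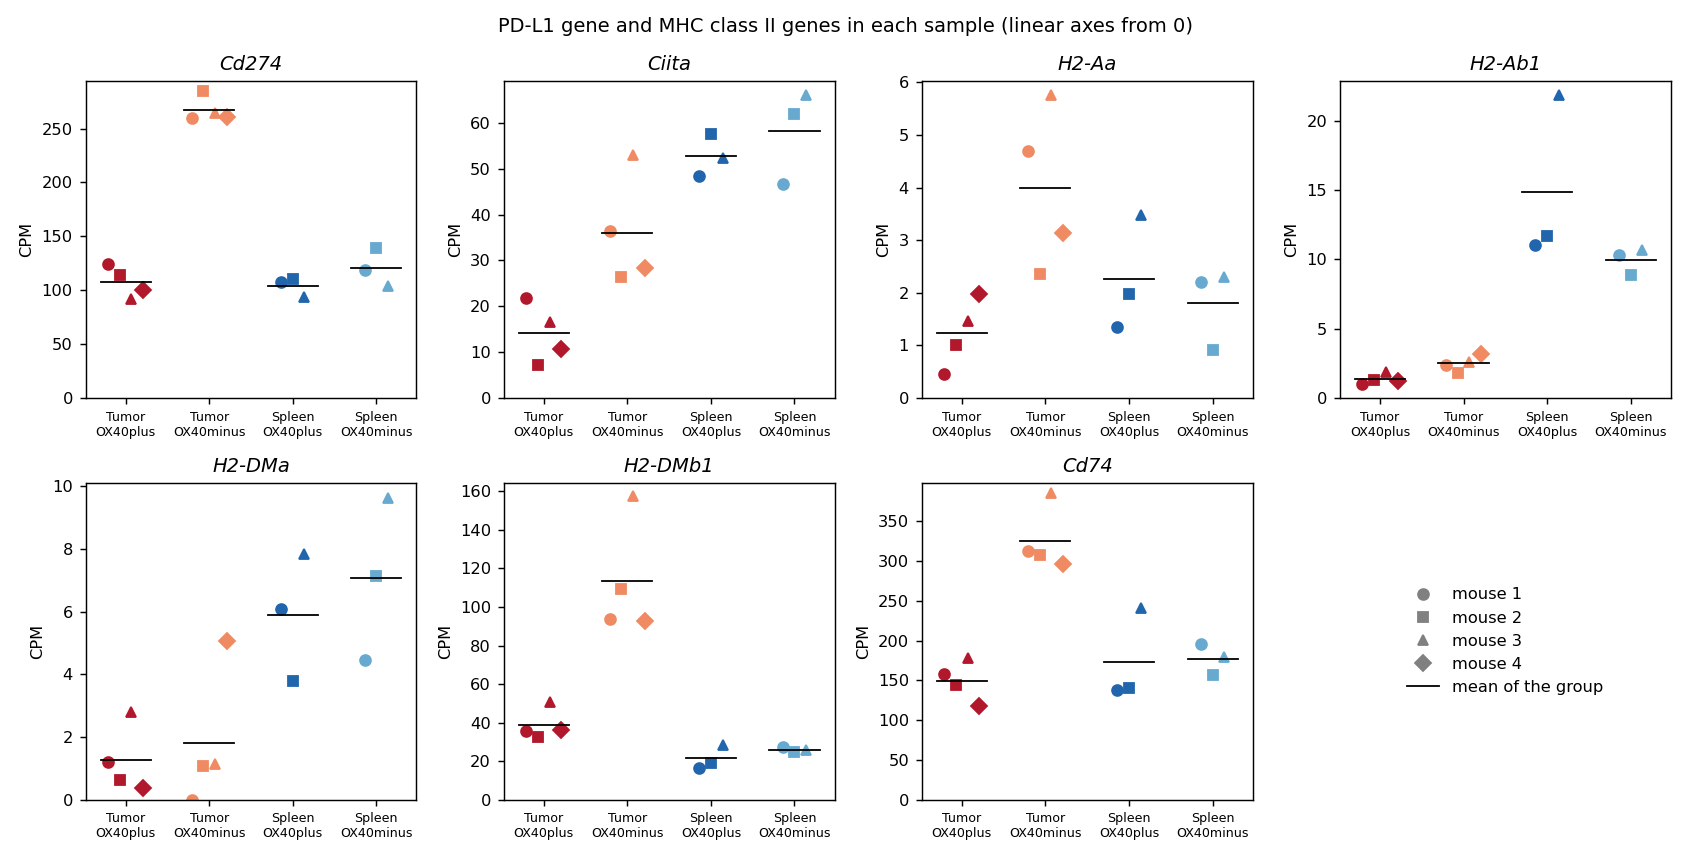
Levels in CPM (linear axes from 0) of the 7 members in each sample, with 1 symbol per mouse and a bar for the mean of each group. In tumors, the OX40plus points of Cd274, Ciita, H2-Aa, H2-DMb1 and Cd74 all lie below the OX40minus points, whereas in spleens the points of the gates overlap for these 5 genes.

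Cd274 (chromosome 19, 29367455 to 29388095, build mm10) had 124, 115, 91.9 and 99.9 CPM in tumor OX40plus Tregs, against 260, 284, 264 and 261 CPM in tumor OX40minus Tregs. The groups did not overlap, and the 4 OX40minus values lay close together. The log2 fold change was -1.32 ± 0.11 SE, 2.50-fold lower in OX40plus (adjusted p = 2.41e-07), and within mice it lay between -1.52 and -1.07. Cd274 had the smallest adjusted p of the members in this comparison.

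Ciita, the switch of the class II genes (chromosome 16, 10480059 to 10528418), had 21.9, 7.15, 16.6 and 10.8 CPM in tumor OX40plus Tregs, against 36.4, 26.3, 52.9 and 28.4 CPM in tumor OX40minus Tregs. The groups did not overlap, although both were spread widely. The log2 fold change was -1.42 ± 0.28 SE, 2.68-fold lower in OX40plus (adjusted p = 0.000971), and the value was lower in OX40plus in 4 of 4 mice.

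Cd74, the invariant chain gene (chromosome 18, 60803848 to 60812652), had the highest mean CPM of the members in each of the 4 groups. It had 157, 145, 178 and 118 CPM in tumor OX40plus Tregs, against 313, 308, 385 and 296 CPM in tumor OX40minus Tregs. The groups did not overlap, and the log2 fold change was -1.13 ± 0.16 SE (adjusted p = 6.17e-05). H2-DMb1, the beta chain of the peptide exchanger H2-DM (chromosome 17, 34153072 to 34160230), had 35.8, 32.4, 50.5 and 36.1 CPM in tumor OX40plus Tregs, against 93.7, 109, 157 and 92.7 CPM in tumor OX40minus Tregs. In both gates mouse 3 had the highest value, and the groups did not overlap (-1.53 ± 0.19 SE, 2.90-fold lower, adjusted p = 1.62e-05).

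The chains of the antigen-presenting molecule itself were at low levels in tumors. H2-Aa, the alpha chain of I-A (chromosome 17, 34282744 to 34287823), had 0.465, 1.01, 1.46 and 1.98 CPM in tumor OX40plus Tregs, against 4.69, 2.36, 5.76 and 3.13 CPM in tumor OX40minus Tregs. The groups did not overlap, though the highest OX40plus value was close to the lowest OX40minus value (-1.90 ± 0.52 SE, adjusted p = 0.00906). H2-Ab1, the beta chain of I-A (chromosome 17, 34257689 to 34269419), had 0.983, 1.30, 1.87 and 1.24 CPM in tumor OX40plus Tregs, against 2.40, 1.84, 2.57 and 3.17 CPM in tumor OX40minus Tregs. Its groups overlapped slightly, at 1.87 CPM in OX40plus and 1.84 CPM in OX40minus Tregs, and the log2 fold change was -0.91 ± 0.30 SE (adjusted p = 0.0239). This call was lost with only the tumor groups fitted (adjusted p = 0.111), with limma-voom (adjusted p = 0.118), with the first library of each pair (-0.61, adjusted p = 0.151), without tumor OX40plus mouse 1 (adjusted p = 0.0583) and without tumor OX40minus mouse 4 (adjusted p = 0.0703).

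H2-DMa, the alpha chain of H2-DM (chromosome 17, 34119541 to 34139101), had 1.20, 0.641, 2.81 and 0.387 CPM in tumor OX40plus Tregs, against under 0.106 (below 3 counts), 1.06, 1.13 and 5.07 CPM in tumor OX40minus Tregs. No direction can be read from these values (-0.22 ± 1.16 SE, adjusted p = 0.906). In 4 of the 14 pairs of libraries 1 library had under 3 estimated counts of H2-DMa and the other did not, as in tumor OX40plus mouse 1 with 34.9 and 0 estimated counts, and in 1 pair both were under 3. Cd274, Ciita, Cd74, H2-Ab1 and H2-DMb1 had no such pair, and H2-Aa had 1. H2-DMa values in tumors are therefore uncertain, and its sign in the tumor comparison turned to positive under 9 of 17 alternative settings.

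Bulk RNA gives no way to tell whether fewer cells carried a transcript or each cell carried less of it, so for every comparison here these cannot be told apart.

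**Figure D2:**
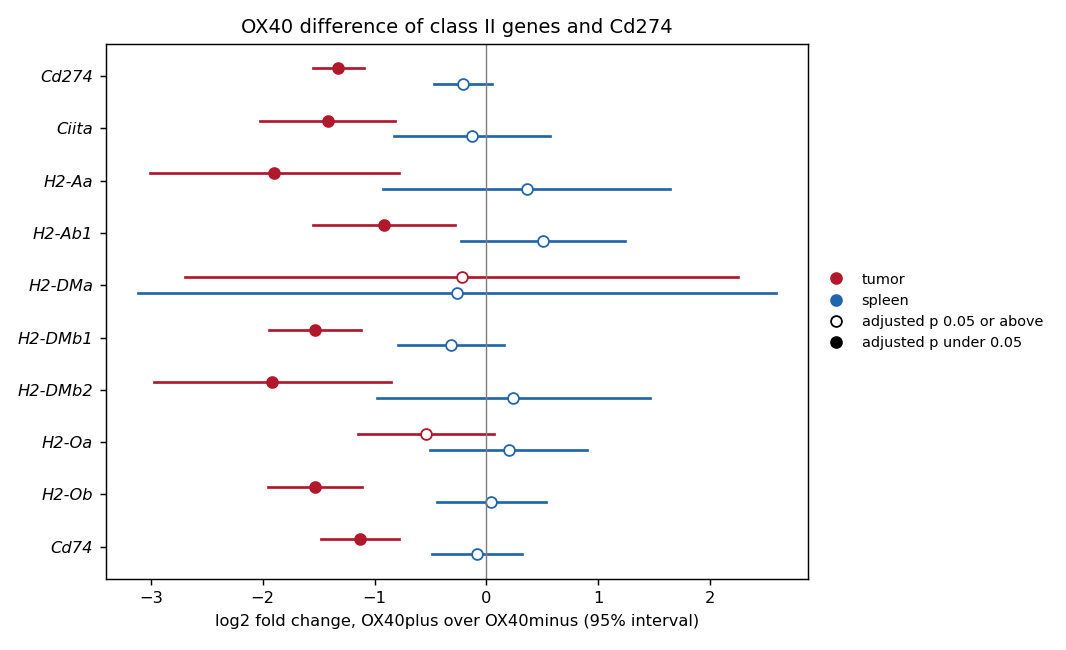
Log2 fold changes of OX40plus over OX40minus with their 95% intervals for Cd274 and 9 class II genes in tumors (red) and spleens (blue). Filled points passed an adjusted p of 0.05: 8 of 10 genes in tumors, all negative, and none in spleens. Among all genes tested, 20% were called lower in tumors and 7.99% were called in spleens.

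In spleens, none of the 7 members was called between the gates. Over all genes 7.99% were called. No member had an unadjusted p under 0.05 by limma either, the smallest being 0.108 for Cd274. The median log2 fold change of the members was -0.13, against 0.01 over all genes. Cd274 had 108, 110 and 93.6 CPM in spleen OX40plus Tregs, against 118, 139 and 104 CPM in spleen OX40minus Tregs, with a log2 fold change of -0.21 (95% interval -0.47 to 0.05, adjusted p = 0.458), and of -0.14 without mouse 3 of OX40plus. Its groups overlapped, although the value was lower in OX40plus in each of the 3 mice. Cd74 had 138, 140 and 241 CPM in spleen OX40plus Tregs, against 195, 157 and 179 CPM in spleen OX40minus Tregs. The 95% interval of its difference was -0.49 to 0.32, and the high value belonged to mouse 3. The log2 fold change was -0.08 (adjusted p = 0.950) with that sample and -0.35 (adjusted p = 0.273) without it.

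Ciita was close to equal in the spleen gates, with 48.4, 57.6 and 52.3 CPM in OX40plus and 46.6, 61.9 and 66.1 CPM in OX40minus Tregs (95% interval of the log2 difference -0.83 to 0.57). H2-DMb1 had 16.5, 19.2 and 28.6 CPM in spleen OX40plus Tregs, against 27.5, 24.7 and 25.9 CPM in spleen OX40minus Tregs (-0.79 to 0.15). H2-Aa lay between 1.36 and 3.48 CPM in spleen OX40plus and between 0.921 and 2.30 CPM in spleen OX40minus Tregs. The H2-Aa interval was -0.92 to 1.64. For each of these 5 genes the tumor log2 fold change lay below its spleen interval. This leaves out the error of the tumor value, and the interaction test below did not call Ciita or H2-Aa. Without the spleen OX40plus sample of mouse 3, the log2 fold change of H2-Aa turned sign (0.36 with it and -0.0066 without it, adjusted p = 0.912 and 0.999). That of H2-DMb1 was -0.32 with the sample and -0.55 without it (adjusted p = 0.200), and that of Ciita -0.13 and -0.12.

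H2-Ab1 had 11.0, 11.7 and 21.8 CPM in spleen OX40plus Tregs, against 10.3, 8.87 and 10.7 CPM in spleen OX40minus Tregs. All 3 OX40plus values lay above the OX40minus values, but the difference was not called (0.51 ± 0.35 SE, adjusted p = 0.564). The highest value was again that of mouse 3, and leaving it out gave 0.19 (adjusted p = 0.966). H2-DMa had 6.10, 3.79 and 7.84 CPM in spleen OX40plus and 4.45, 7.15 and 9.64 CPM in spleen OX40minus Tregs, and both libraries of every spleen pair held it above 3 counts. Its log2 fold change was -0.26 with mouse 3 of OX40plus and -0.51 without it, neither called.

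Whether the OX40 difference itself differed between tissues was tested as an interaction, in which a negative value means a more negative OX40 difference in tumors. Over all genes 10.9% were called. Of the members 3 were, all negative: Cd274 (-1.11 ± 0.16 SE, adjusted p = 0.000571), H2-DMb1 (-1.22 ± 0.29 SE, adjusted p = 0.0153) and Cd74 (-1.05 ± 0.25 SE, adjusted p = 0.0146). H2-Ab1 (-1.42, adjusted p = 0.0583), Ciita (-1.29, adjusted p = 0.0695) and H2-Aa (-2.25, adjusted p = 0.0835) did not pass, nor did H2-DMa (0.04). With the mouse number as a replicate block, Ciita passed (-1.29, adjusted p = 0.0184). Without the spleen OX40plus sample of mouse 3, Cd274 (-1.19), H2-DMb1 (-0.99) and Cd74 (-0.78) were still called, with adjusted p = 0.000759, 0.0348 and 0.0204, and H2-Ab1 (-1.10), Ciita (-1.30), H2-Aa (-1.89) and H2-DMa (0.29) were again not called.

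The members did not move together between tissues. In OX40plus Tregs, 4 of the 7 members were called between tumor and spleen, 1 higher and 3 lower in tumors, where 64.5% of all genes were called. Without spleen OX40plus mouse 3 the count was 3 of 7, 1 higher and 2 lower. In OX40minus Tregs 5 of 7 were called, 3 higher and 2 lower in tumors, where 59.1% of all genes were called. Both shares are near those of all genes, so the counts are no result about the members.

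Within OX40minus Tregs, tumors carried more Cd274 (267 ± 11.4 CPM in tumors, n = 4, and 121 ± 17.6 CPM in spleens, n = 3, SD), with a log2 fold change of 1.16 ± 0.11 SE (adjusted p = 3.12e-07). Cd74 was higher in tumors as well (0.87 ± 0.18 SE, adjusted p = 0.000513), as was H2-DMb1 (2.09 ± 0.21 SE, adjusted p = 3.48e-07). H2-Ab1 went the other way (-2.01 ± 0.32 SE, adjusted p = 5.79e-05), and so did H2-DMa (-3.77 ± 1.26 SE, adjusted p = 0.0168). The H2-DMa call was lost with the first library of each pair (-3.03, adjusted p = 0.124) and without spleen OX40minus mouse 3 (-3.51, adjusted p = 0.0589). Ciita (-0.73, adjusted p = 0.0512) and H2-Aa (1.19, adjusted p = 0.0820) were not called, but Ciita was called under 8 of 15 alternative settings, always lower in tumors.

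Within OX40plus Tregs, Cd274 was nearly the same in tumors and spleens, with 108 ± 14.4 CPM in tumors (SD, n = 4) and 104 ± 9.01 CPM in spleens (SD, n = 3). The log2 difference was 0.04 (adjusted p = 0.751), and it was negative with library size alone, without tumor OX40plus mouse 1 and without spleen OX40plus mouse 3. Cd74 was not called either (-0.17, adjusted p = 0.405, and 0.090 without spleen OX40plus mouse 3). H2-DMb1 was called higher in tumors, at 38.7 ± 8.04 CPM (SD, n = 4) against 21.4 ± 6.39 CPM in spleens (SD, n = 3). It stayed called under 15 of 16 alternatives, without spleen OX40plus mouse 3 among them, and lost the call when summed with H2-DMb2. H2-Ab1 was 10.8-fold lower in tumors (-3.43 ± 0.32 SE, adjusted p = 1.26e-07) and Ciita 4.06-fold lower (-2.02 ± 0.31 SE, adjusted p = 2.53e-05). Without spleen OX40plus mouse 3 these log2 differences were -3.11 for H2-Ab1 and -2.03 for Ciita, both still called. H2-Aa was not called, at 1.23 ± 0.646 CPM in tumors and 2.27 ± 1.09 CPM in spleens. It was called lower in tumors with the first library of each pair (-1.67, adjusted p = 0.0487) and without tumor OX40plus mouse 4 (-1.40, adjusted p = 0.0428). H2-DMa was lower in tumors (-3.73 ± 1.26 SE, adjusted p = 0.0162), a call lost with library size alone (adjusted p = 0.0930), with relative log expression factors (adjusted p = 0.103), with the second library of each pair (adjusted p = 0.0593) and without spleen OX40plus mouse 3 (adjusted p = 0.0536).

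By mean level over the 4 groups, Cd274 was highest in tumor OX40minus Tregs, and spleen OX40minus, tumor OX40plus and spleen OX40plus Tregs followed with overlapping values. Cd74 had the same leading group, above spleen OX40minus, spleen OX40plus and tumor OX40plus Tregs, which overlapped. H2-DMb1 fell in the order tumor OX40minus, tumor OX40plus, spleen OX40minus and spleen OX40plus, of which the last 2 overlapped. Ciita and H2-Ab1 had another order, with both spleen groups first and tumor OX40plus Tregs last. The spleen groups overlapped for Ciita, and spleen OX40plus overlapped tumor OX40minus Tregs. H2-Aa was highest in tumor OX40minus Tregs, but its range overlapped that of spleen OX40plus Tregs. H2-DMa was lowest in tumor OX40plus Tregs, below both spleen groups without overlap, while tumor OX40minus Tregs overlapped every other group.

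Compared per kilobase of each gene's longest transcript, the members of one pathway were at very unequal levels. In tumor OX40plus Tregs Cd74 was at 106 CPM per kb, Cd274 at 29.7, H2-DMb1 at 27.6 and Ciita at 2.35 CPM per kb. The I-A chains were at 1.09 CPM per kb for H2-Aa and 1.11 CPM per kb for H2-Ab1. In tumor OX40minus Tregs Cd74 was at 231, H2-DMb1 at 80.7 and Cd274 at 73.9 CPM per kb, while H2-Aa was at 3.53 and H2-Ab1 at 2.06 CPM per kb. The gap between the invariant chain and the beta chain of I-A was smaller in spleens, where Cd74 was at 123 CPM per kb in OX40plus and 126 CPM per kb in OX40minus Tregs, and H2-Ab1 at 12.2 and 8.21 CPM per kb in the same gates. H2-Aa did not follow H2-Ab1 there, with 2.01 CPM per kb in spleen OX40plus and 1.60 CPM per kb in spleen OX40minus Tregs.

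The class II region of chromosome 17 holds 5 further genes of the family on a list chosen for it, of which 3 were tested. H2-DMb2 encodes a second H2-DM beta chain, and H2-Oa and H2-Ob encode H2-O, which restrains H2-DM. H2-Ob had 5.54 to 10.2 CPM in tumor OX40plus Tregs and 17.1 to 25.5 CPM in tumor OX40minus Tregs, and was lower in OX40plus (-1.53 ± 0.20 SE, adjusted p = 2.13e-05). H2-DMb2 was also lower in tumor OX40plus Tregs (-1.91 ± 0.50 SE, adjusted p = 0.00630), and H2-Oa was not called (-0.54, adjusted p = 0.154). None of the 3 was called in spleens, and H2-Ob passed the interaction (-1.58, adjusted p = 0.00366). All 3 were lower in tumors than in spleens in both gates, H2-DMb2 by 3.75 and H2-Oa by 2.75 on the log2 scale in OX40plus Tregs. Among all genes, 34.2% were called lower in tumors in OX40plus Tregs and 29.3% in OX40minus Tregs.

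H2-DMb1 and H2-DMb2 lie next to each other and moved in opposite directions between tissues. H2-DMb1 was at 27.6 CPM per kb in tumor OX40plus and 80.7 CPM per kb in tumor OX40minus Tregs, against 15.3 and 18.5 CPM per kb in the same gates of spleens. H2-DMb2 was at 2.20 and 5.47 CPM per kb in the tumor gates, against 19.2 and 16.5 CPM per kb in the spleen gates. Their promoter stretches printed above begin with the same 15 bases and are equal at 59 of 68 positions without gaps, and 37.6% of the 31-base words of the longest H2-DMb1 transcript also occur in H2-DMb2 transcripts. Estimated counts of such genes can be split wrongly between them, so each of the 2 values is uncertain. With the 2 genes summed, a setting chosen after seeing the data, the tumor OX40 difference was still called, but the higher level in tumors than in spleens of OX40plus Tregs was not there (-0.25, adjusted p = 0.250). In OX40minus Tregs the sum was higher in tumors (1.24). For Cd274, 15.4% of words occur in transcripts of other genes, and for the remaining members at most 1.84% do.

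**Figure D3:**
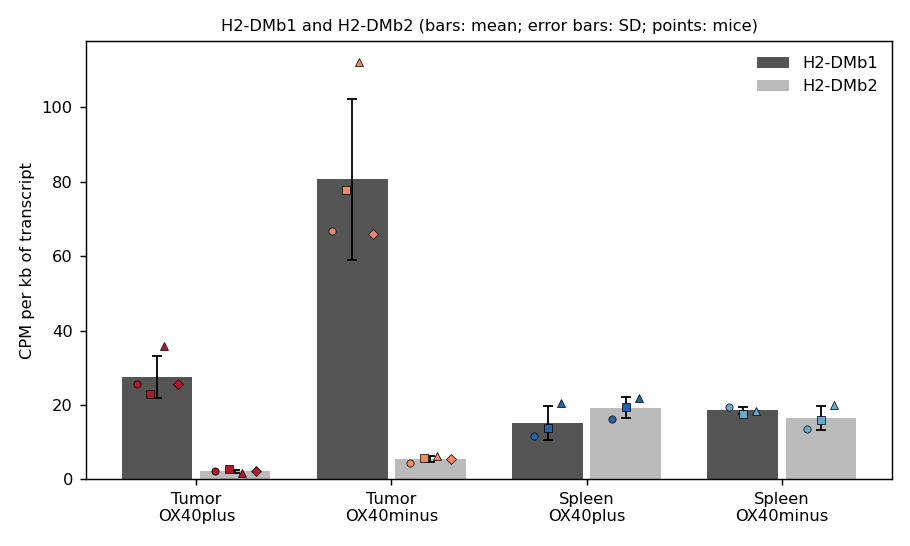
Mean CPM per kb of transcript (bars, axis from 0) with SD and 1 point per mouse for H2-DMb1 (dark) and H2-DMb2 (light). H2-DMb1 is above H2-DMb2 in both tumor groups, at 27.6 against 2.20 in OX40plus and 80.7 against 5.47 in OX40minus, and the genes are at similar levels in spleens.

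Genes that act upstream of Ciita and Cd274 were read from a list of 13 genes of the interferon gamma path. In tumors, 11 of the 12 tested were lower in OX40plus Tregs and none was higher, with a median log2 fold change of -0.57. Among all genes tested, 20% were called lower and 18.6% higher in this comparison, with a median of -0.07. The receptor chain gene Ifngr1 had 1348 ± 94.3 CPM in tumor OX40plus and 2370 ± 128 CPM in tumor OX40minus Tregs (SD, n = 4 each; log2 fold change -0.81, adjusted p = 3.01e-06). The signal transducers Jak1 (-0.50) and Stat2 (-0.95), their partner Irf9 (-0.70) and the feedback inhibitor Socs3 (-1.53) were lower as well. Ifng, the cytokine gene itself, was not called (-0.54, adjusted p = 0.110).

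In spleens, 1 of the 12 was higher and 1 lower in OX40plus Tregs, where 4.39% of all genes were called higher and 3.6% lower. Ifng was higher (1.09, adjusted p = 0.0319), and Socs3 was lower (-0.97, adjusted p = 0.00121). In the interaction, where 10.9% of all genes were called, 5 of 12 were, all negative. They included Ifng (-1.63), Ifngr1 (-0.69), Stat2 (-0.78) and Irf9 (-0.53).

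**Figure D4:**
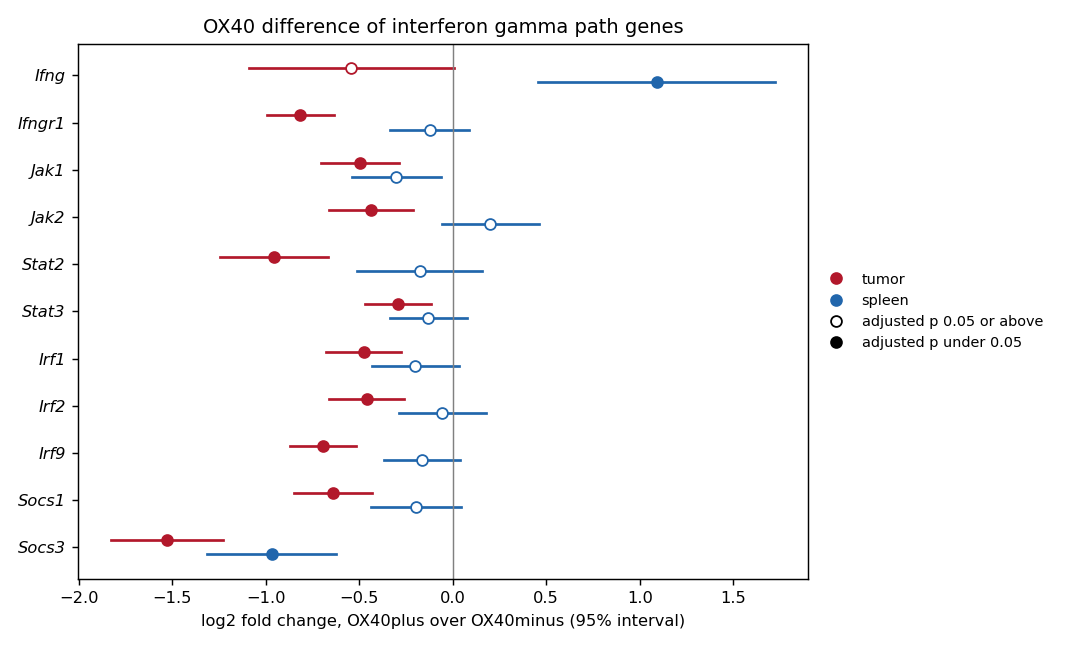
Log2 fold changes of OX40plus over OX40minus with 95% intervals for 11 of the 12 tested genes of the interferon gamma path in tumors (red) and spleens (blue). In tumors 10 of the 11 shown passed an adjusted p of 0.05 on the negative side (filled points), where 20% of all genes did. In spleens Ifng passed on the positive side and Socs3 on the negative side.

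Of 15 tested DNA-binding partners of CIITA and other known regulators of Ciita, 5 were higher and 1 lower in tumor OX40plus Tregs. Over all genes tested, 18.6% were called higher and 20% lower in this comparison. Rfx5, a subunit of the complex on the X box, had 32.5 ± 7.59 CPM in tumor OX40plus and 41.3 ± 4.74 CPM in tumor OX40minus Tregs and was not called (-0.36, adjusted p = 0.0538). Its partners Rfxap (-0.11) and Rfxank (0.02) were not called either. Higher in tumor OX40plus Tregs were the chromatin genes Ezh2 (0.97) and Hdac2 (0.82) and the transcription factor gene Irf8 (0.55). The lower gene was Spi1, which encodes the myeloid and B cell factor PU.1, with 14.6 ± 2.62 CPM in tumor OX40plus and 40.5 ± 8.26 CPM in tumor OX40minus Tregs. In spleens 3 were higher and 1 lower in OX40plus, where 4.39% of all genes were called higher and 3.6% lower. Prdm1, the gene of the Ciita repressor Blimp-1, was higher (0.91), and Spi1 was lower (-1.25).

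Antigen processing genes of the class II pathway were mixed in tumors, where 2 of 11 were higher and 6 lower in OX40plus Tregs. The shares of all genes in this comparison were 18.6% called higher and 20% called lower. Ctss and Ctsl, cathepsins that trim the invariant chain, were lower (-0.56 and -0.96), as was the endosomal protease gene Lgmn (-0.68). Ctsz had 815 ± 22.8 CPM in tumor OX40plus and 321 ± 23.9 CPM in tumor OX40minus Tregs (1.35, adjusted p = 1.55e-07), and Ctsb was higher by 0.39. In spleens, where 3.6% of all genes were called lower, 7 of 11 were lower in OX40plus and none was higher. Lgmn was at -1.57 and Ctss at -0.59. The 4 processing genes called in the interaction were all positive, among them Ctsz (1.42) and Ctsb (1.27), where 4.53% of all genes were called positive.

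Class I presentation genes served as the neighbouring pathway. In tumors 6 of 13 were lower and 3 higher in OX40plus Tregs, where 20% of all genes were called lower and 18.6% higher. Nlrc5, the class I counterpart of Ciita, had 215 ± 35.3 CPM in tumor OX40plus and 426 ± 36.8 CPM in tumor OX40minus Tregs (2-fold lower, adjusted p = 2.96e-05). The class I genes H2-Q4 (-0.84), H2-Q7 (-0.55), H2-M3 (-0.52) and H2-K1 (-0.26) and the immunoproteasome gene Psmb9 (-0.50) were lower, while B2m (-0.04) and the peptide transporter gene Tap1 (-0.19) were not called. The H2-Q and H2-K genes are near-identical in parts, so reads may be split wrongly among them. In spleens none of the 13 was called, where 7.99% of all genes were.

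Among partners of PD-L1, its receptor gene Pdcd1 went in the opposite direction to Cd274. Pdcd1 had 272 ± 21.7 CPM in tumor OX40plus and 173 ± 10.9 CPM in tumor OX40minus Tregs (0.65, adjusted p = 0.000910), and 113 ± 21.5 CPM in spleen OX40plus and 30.9 ± 6.47 CPM in spleen OX40minus Tregs (1.87, adjusted p = 1.83e-06). Cd86, a costimulatory ligand, was lower in tumor OX40plus Tregs (-1.70), and Cd80, which binds PD-L1 on the same membrane, was not called (-0.33, adjusted p = 0.127). Of the 9 partners tested, 2 were higher and 2 lower in tumors, and 2 were higher and none lower in spleens. The tumor counts are near the shares of all genes, 18.6% higher and 20% lower, so they are no result about the partners. In spleens 4.39% of all genes were called higher. Of 7 receptors and partners of class II or CD74, Lag3, an inhibitory receptor for class II, was higher in OX40plus Tregs of tumors (1.71) and of spleens (1.51). Mif, a ligand of CD74, was higher in both too (1.21 and 0.63), and Cd4, the coreceptor for class II, was lower in tumors (-0.68).

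Markers of cells that make class II were present in these libraries and moved with part of the pattern. Of 14 macrophage and monocyte markers tested, 13 were lower in tumor OX40plus Tregs, where 20% of all genes were called lower. The summed level of the 14 was 897 to 1086 CPM in tumor OX40plus and 1936 to 2119 CPM in tumor OX40minus samples. In spleens 12 of the 14 were lower in OX40plus, where 3.6% of all genes were called lower. Summed levels there were 247 to 368 CPM in OX40plus and 1099 to 1429 CPM in OX40minus samples. Ccr2, a chemokine receptor gene that activated T cells also express, made up 78.0% to 90.2% of the tumor sums and 10.7% to 30.8% of the spleen sums. Without Ccr2, a setting chosen after seeing the data, the sums were 102 to 111 CPM in tumor OX40plus and 317 to 467 CPM in tumor OX40minus samples, and 174 to 316 CPM in spleen OX40plus and 977 to 1275 CPM in spleen OX40minus samples. OX40plus samples were then still below OX40minus samples in each tissue, but the order of the tissues turned, with tumors below spleens in both gates. Csf1r, a defining macrophage gene, had 12.1 ± 4.08 CPM in tumor OX40plus and 45.3 ± 15.2 CPM in tumor OX40minus Tregs, and 22.2 ± 11.6 CPM in spleen OX40plus and 185 ± 15.1 CPM in spleen OX40minus Tregs. The macrophage markers fell in OX40plus Tregs of both tissues, and their part in the members' differences was not tested. In the interaction, where 10.9% of all genes were called, 2 of the 14 were, both positive.

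Dendritic cell markers were lower in tumor OX40plus Tregs for 7 of 12 genes, where 20% of all genes were called lower. In spleen OX40plus Tregs 1 of 12 was lower, where 3.6% of all genes were. The summed level of the 12 was 202 to 250 CPM in tumor OX40plus and 348 to 451 CPM in tumor OX40minus samples. It was 225 to 299 CPM in spleen OX40plus and 330 to 357 CPM in spleen OX40minus samples. Bst2, which many cell types express, together with Wdfy4 and Cd24a made up 44.2% to 74.0% of the tumor sums and 84.7% to 91.9% of the spleen sums. Without these 3 genes, also a setting chosen after seeing the data, the sums were 53.4 to 99.0 CPM in tumor OX40plus and 178 to 248 CPM in tumor OX40minus samples, and 19.9 to 24.2 CPM in spleen OX40plus and 48.1 to 54.6 CPM in spleen OX40minus samples. Spleens were then below tumors in both gates. Itgax, the CD11c gene, had 10.4 ± 1.56 CPM in spleen OX40plus and 38.9 ± 3.45 CPM in spleen OX40minus Tregs but was not called (-1.92, adjusted p = 0.490). The spleen groups did not overlap. The fit pools the spread of all 4 groups, and tumor OX40plus values of Itgax ran from 0.0382 to 8.35 CPM. This p therefore does not measure the spread of the spleen samples alone. Flt3 had 4.23 ± 1.93 CPM in tumor OX40plus and 17.6 ± 1.75 CPM in tumor OX40minus Tregs, against 2.15 ± 0.904 CPM in spleen OX40plus and 2.11 ± 0.458 CPM in spleen OX40minus Tregs. In the interaction 2 of the 12 dendritic cell markers were called, both negative, and 10 were not, with 10.9% of all genes called. These 2 were Flt3 (-2.18, adjusted p = 0.0178) and the dendritic cell transcription factor gene Zbtb46 (-1.29, adjusted p = 0.0179).

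Of 11 B cell markers, 5 were lower in tumor OX40plus Tregs and none was called in spleens. The shares of all genes were 20% called lower in tumors, and 3.6% called lower and 4.39% called higher in spleens. Pax5, which defines B cells, was under 3 counts in every tumor sample. The summed B cell level was 33.1 to 40.3 CPM in tumor OX40plus and 44.4 to 55.3 CPM in tumor OX40minus samples, and 633 to 953 CPM in spleen OX40plus and 666 to 839 CPM in spleen OX40minus samples. All 11 were lower in tumors than in spleens in both gates, as were H2-Ab1, H2-Oa, H2-Ob and H2-DMb2. Among all genes, 34.2% were called lower in tumors in OX40plus Tregs and 29.3% in OX40minus Tregs. NK cell markers were lower in tumor OX40plus Tregs for 5 of 7 genes and in spleen OX40plus Tregs for 1, neutrophil markers for 2 of 4 and for 0 of 4, and melanocyte markers for 0 of 6 in both tissues. The part of other cells in the members' differences was not tested.

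**Figure D5:**
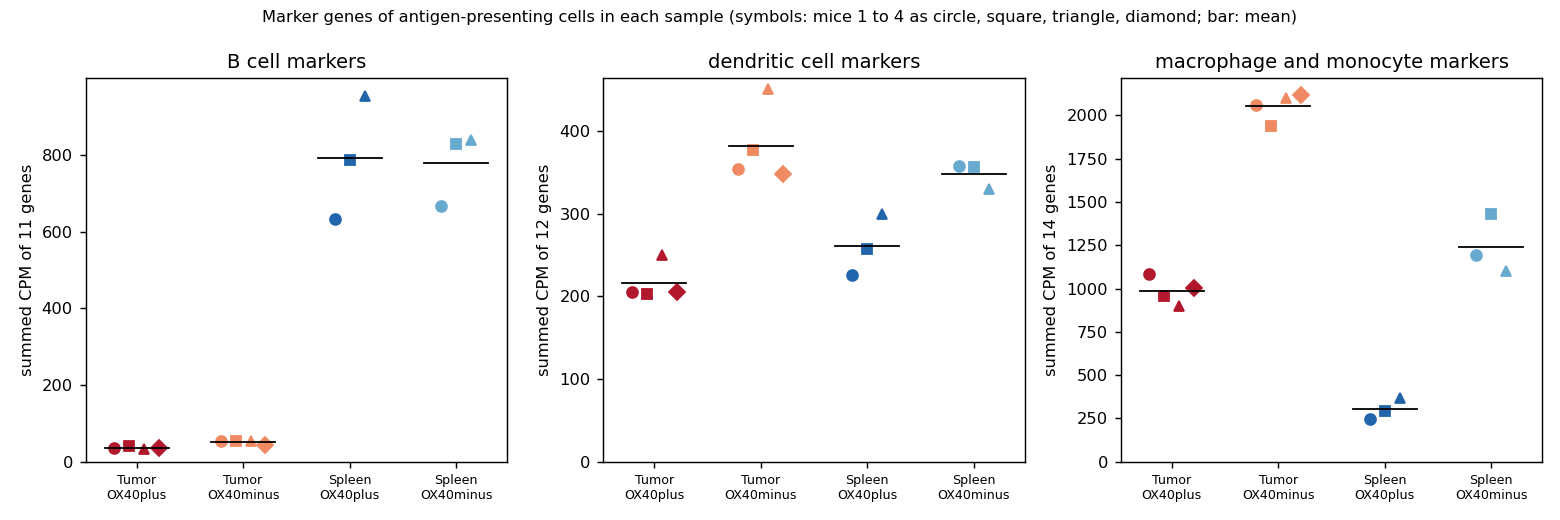
Summed CPM (linear axes from 0) of B cell, dendritic cell and macrophage or monocyte markers in each sample, with 1 symbol per mouse and a bar for the mean. B cell markers are at 633 CPM or more in spleens and at 55.3 CPM or less in tumors; macrophage markers, most of whose sum in tumors is Ccr2, are lower in OX40plus than in OX40minus samples of both tissues.

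The genes whose levels ran most like those of 3 members were found by the root mean square (RMS) difference of log2 CPM over the 14 samples, each gene centred on its mean. For Cd274, whose own RMS was 0.60, they were 4930523C07Rik (0.17), Gramd3 (0.18), Gbp6 (0.20), Prkx (0.22), Itgb3 (0.22) and Vps37b (0.23). Gbp6 encodes an interferon-induced GTPase and Itgb3 an integrin beta chain. For Ciita, with an RMS of 0.96, the 6 nearest included Ampd3 (0.28), Rasgrp4 (0.33), Hhex (0.33) and Man1c1 (0.34). For H2-Ab1, with an RMS of 1.43, they were Plekhm2 (0.32), Fam193b (0.33), Plcb2 (0.35), Zfp395 (0.35), A530040E14Rik (0.37) and Mex3d (0.37). No class II gene was among the 6 nearest of Ciita or H2-Ab1. The 14 samples share groups and mice, so this likeness is a description.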

How the data were processed

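RNA of sorted Tregs was sequenced in 28 libraries, 2 per mouse and gate. The tools were bcl2fastq 2.19, kallisto and limma and the build mm10, per the submitters' processing notes. Not given in the sources used here were strand, scaling factor and gene summary. The deposited values are log2 CPM, in which the authors' form adds 0.5 to each count, as read from the lowest value of each library. That value gave each library's effective size and, by inversion, estimated counts, of which 46.6% to 51.2% per library were whole within 0.01, so no count model was run. The 2 libraries of a mouse and gate were averaged (median chi-square per gene 0.495 to 0.578 over 14 pairs, against 1.42 to 13.0 for other mice of a group).

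A gene was tested if 3 or more samples reached 0.382 CPM and its estimated counts summed to 15 or more, with limma 3.58.1 (R 4.3.3), with a mean-variance trend, 1 term per group and no block. All adjusted p-values are from limma. The titles give the gates of a tissue the same mouse number, so the numbers pair them; the correlation of residuals within pairs was -0.162 to 0.113. Where a mouse gave 1 sample per gate, p-values measure the spread between mice, pooled over the 4 groups. Named genes are the members, the first 3 tested of each list, up to 4 with the smallest adjusted p in each OX40 contrast, and the 6 nearest of 3 members; a few of these genes and 1 promoter motif are not reported here. The members and lists were chosen with earlier results of these data known. With 200 genes changed by 1 on the log2 scale in simulated data, the fit called 63.5% of them in tumors and 52% in spleens. Changed by 2 on that scale, 77.5% and 74% were called. Of the calls, 3.7% to 8.07% were false, the highest share with changes of 2 in spleens. Alternatives were the replicate block, 2 groups alone, other scalings, pseudocount and filter, limma-voom, single libraries and leaving out each sample.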

Additional observations from a re-analysis of the deposited data

Results flagged for a closer look

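The OX40 difference of 3 members was itself different between tumors and spleens by limma's interaction test, and these are listed here for that reason. That test called 10.9% of all genes. H2-DMb1 had an interaction of -1.22 on the log2 scale (adjusted p = 0.0153), with all 4 tumor mice and 2 of 3 spleen mice lower in OX40plus. Cd74 had an interaction of -1.05 (adjusted p = 0.0146), with all 4 tumor mice and 2 of 3 spleen mice lower in OX40plus. Cd274 had an interaction of -1.11 (adjusted p = 0.000571), with all 4 tumor mice and all 3 spleen mice lower in OX40plus, by 0.14 to 0.33 in spleens. Of the 12 dendritic cell markers tested, 2 passed the interaction, Flt3 (-2.18) and Zbtb46 (-1.29), and 10 did not; their part was not tested. No sample stood apart from its group by Dixon's criterion in the 14 tumor groups of 4 values examined.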

How the results depend on the processing

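Of 593 values of single members under the alternatives, 535 kept their direction and side of the threshold, 21 gained a call, 11 lost it and 26 changed sign. In tumors, Cd274, Cd74, Ciita and H2-Aa were called lower in OX40plus under all 17 alternatives and H2-DMb1 under all 18. In spleens no member was called under any of 15. With the replicate block (the mouse number, paired within a tissue), 4486 genes were called in tumors, 858 in spleens and 960 in the interaction, and no call of a member changed except that of Ciita in the interaction (-1.29). With only the 2 spleen groups fitted, 1850 genes were called in spleens, in place of 999. When single samples were left out, the spleen count was 641 (without spleen OX40plus mouse 1) to 846, with 649 without spleen OX40minus mouse 2. The interaction count was 766 (without spleen OX40plus mouse 1) to 1628, with 828 without spleen OX40minus mouse 2, in place of 1365.

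All values that changed sign belonged to members not called in that comparison, apart from H2-DMb1. The H2-DMa difference in tumors became 0.73 with library size alone, 0.79 with relative log expression factors, 0.32 with 2 added to each count, 0.76 with limma-voom and 0.84 with the second library of each pair, and ranged from -1.48 to 0.90 with single samples left out. Its spleen difference ranged from -0.57 to 0.017 and its interaction from -1.22 to 1.17 with single samples left out, and the interaction was -0.91 with the first library of each pair. In OX40plus Tregs between tissues, Cd274 was -0.055 with library size alone and ranged from -0.029 to 0.12 with single samples left out, and Cd74 ranged from -0.31 to 0.090. In spleens, Cd74 ranged from -0.35 to 0.055 and H2-Aa from -0.066 to 0.66. H2-DMb1 and H2-DMb2 summed gave -0.25 in OX40plus Tregs between tissues. Library size alone moved the median of all genes in that comparison to -0.24, against -0.13 as deposited. The cause of these changes was not tested. In tumors H2-Aa, H2-Ab1 and H2-DMa lay at 5.76 CPM or less, and whether depth limits their calls was not tested.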
